A study of Homo sapiens with 12 samples.

Results

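The genes described here encode 10 proteins of the BCL2 family, the regulators of the mitochondrial route to apoptosis. They were taken by gene symbol from the table of RNA-seq counts, and all 10 were found among its 28278 gene symbols. Each of the 10 passed the filter on low counts in every comparison. PMAIP1 had under 10 reads in each control GFP-positive library, and where these libraries entered it passed through the other groups. In motor neurons exposed to cis-chlordane, BBC3, PMAIP1 and BCL2L11 rose by at least 2-fold, whereas BID and BCL2L1 fell by at least 2-fold. In the GFP-negative cells of the same cultures BBC3 and PMAIP1 also rose, but neither BCL2L11 nor BCL2L1 passed the test.

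Proteins of this family share short BCL2 homology (BH) stretches and meet at the outer mitochondrial membrane. BAX and BAK, the effectors, form pores in that membrane, which release cytochrome c and lead to caspase activation. The guardians BCL-2, BCL-XL and MCL-1 bind and restrain them, and the BH3-only proteins, which are switched on by various forms of cell stress, bind the guardians or act on the effectors. Neurons are long-lived cells, and guardians such as BCL-XL are known to keep them alive. Transcript levels, which are what was measured here, do not show the amount, location or cleavage of these proteins.

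RNA came from WA09-Islet1-GFP, a wild-type human embryonic stem cell line in which GFP reports expression of the motor neuron transcription factor Islet1. Differentiated cells were frozen, thawed, and given cis-chlordane, an organochlorine pesticide, or the same volume of its solvent DMSO for 16 hours, after which FACS separated GFP-positive from GFP-negative cells. The sample labels give the dose as 10 µM and the study's methods as 16 µM. There were 3 libraries in each of 4 groups, namely control GFP-positive, treated GFP-positive, control GFP-negative and treated GFP-negative cells, and replicates, by the study's definition, are separate thaws of frozen stocks. All cells came from this single line, and the GFP-negative fraction is a mixture defined only by the lack of reporter signal. The titles call the treated libraries both untreated and treated, and the separate treatment field was used to tell the groups apart.

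The libraries held from 23414935 to 38347050 counts, with a median of 31553596. Levels are given in CPM, a gene's reads relative to the TMM-scaled size of its library. Among controls, ISL1 was measured at 65.7 ± 3.12 CPM (mean ± SD, n = 3) after the sort for GFP and at 2.57 ± 0.203 CPM in the negative fraction. After treatment it stood at 12.0 ± 3.71 CPM in GFP-positive and 0.548 ± 0.152 CPM in GFP-negative cells, so that the order of the sort fractions was kept while the level was lower in both. The summed level of 10 motor neuron markers ranged from 2316 to 2900 CPM in control GFP-positive, 777 to 1141 CPM in treated GFP-positive, 424 to 461 CPM in control GFP-negative and 159 to 198 CPM in treated GFP-negative libraries, with none of the 10 at 0 in all 3 libraries of a group. For 10 progenitor and cycling markers the ranges were 2946 to 3295, 2379 to 3191, 6411 to 8214 and 7345 to 8395 CPM in the same order. VIM and NES make up most of these sums. With treatment of GFP-negative cells VIM went from 3861 to 6424 CPM, NES from 2632 to 1119 and MKI67 from 169 to 32.0 CPM. Of the 9 tested there, 1 was higher and 6 were lower, against 15.3% and 16.2% of all genes (edgeR, adjusted p under 0.05). In GFP-positive cells 2 were higher and 5 lower, against 26.5% and 24.4%. The part of these shifts in the values of the BCL2 family was not tested, and in bulk samples fewer cells of a type and less RNA per cell cannot be told apart. Control GFP-negative replicate 3 stood apart, with 67.0 CPM summed over 6 immune markers against 3.15 and 1.94 CPM in the other control GFP-negative libraries and 1.28 to 16.9 CPM in the remaining groups. The calls and the main counts, orders and correlations that rest on it are also given without it, in the GFP-negative response, the control sort comparison and the difference between the fractions.

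The members differ in where they lie and in what surrounds their starts. The promoter stretches of BBC3, PMAIP1, BCL2L11 and BCL2L1 are shown because the first 3 genes rose by at least 2-fold in motor neurons and the last 2 differed in response between the sort fractions. RefSeq promoter windows (build GRCh38.p14, 250 bases before to 50 after a start) held 13 entries for 8 of the 10 members, with no entry for BIK and MCL1. The 250 bases before the start are printed 5′ to 3′ on the strand of the gene. BBC3 lies on the minus strand (chr19:47232668-47232917), PMAIP1 on the plus strand (chr18:59899746-59899995), BCL2L11 on the plus strand (chr2:111120664-111120913) and BCL2L1 on the minus strand (chr20:31723964-31724213, the first of its 2 entries). Capitals mark every match to the motifs searched.
BBC3: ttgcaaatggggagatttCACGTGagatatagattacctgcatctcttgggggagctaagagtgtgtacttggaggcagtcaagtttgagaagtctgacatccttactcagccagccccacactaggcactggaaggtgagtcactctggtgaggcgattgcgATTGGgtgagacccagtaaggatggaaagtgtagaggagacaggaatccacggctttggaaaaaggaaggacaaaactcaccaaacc
PMAIP1: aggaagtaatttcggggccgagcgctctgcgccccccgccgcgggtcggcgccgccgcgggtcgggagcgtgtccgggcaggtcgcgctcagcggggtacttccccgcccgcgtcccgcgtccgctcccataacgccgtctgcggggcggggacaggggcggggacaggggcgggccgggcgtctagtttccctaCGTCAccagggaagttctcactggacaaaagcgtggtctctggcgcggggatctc
BCL2L11: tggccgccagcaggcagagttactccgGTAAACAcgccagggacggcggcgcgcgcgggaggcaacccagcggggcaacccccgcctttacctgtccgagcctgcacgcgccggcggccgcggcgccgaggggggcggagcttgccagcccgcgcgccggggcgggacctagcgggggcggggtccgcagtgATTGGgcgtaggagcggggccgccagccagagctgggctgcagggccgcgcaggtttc
BCL2L1: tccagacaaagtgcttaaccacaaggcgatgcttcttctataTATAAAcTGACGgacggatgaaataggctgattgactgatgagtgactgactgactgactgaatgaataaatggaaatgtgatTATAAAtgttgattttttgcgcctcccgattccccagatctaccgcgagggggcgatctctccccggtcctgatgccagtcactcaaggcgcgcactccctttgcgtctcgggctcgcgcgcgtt

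The motifs were searched on both strands of the whole windows, and their share was counted over 35114 RefSeq promoters of 300 bases. They were the amino acid response element core TGATGNAA (in 3.62% of promoters), the cyclic AMP response element TGACGTCA (1.85%), its TGACG core (24.6%), the ER stress response element, the FOXO motif TGTTTAC (3.42%), the CCAAT box (34.6%), the TATA box TATAAA (11.5%) and the E-box CACGTG (7.26%). The ER stress response element was present in 0.0769% of promoters. A match to TGACGTCA counts for its TGACG core as well, and the ER stress response element includes a CCAAT box. BBC3 held an E-box 232 bases before its start and a CCAAT box on the other strand 87 bases before it. PMAIP1 held the TGACG core on the other strand 55 bases before the start, read as CGTCA. In BCL2L11 a FOXO motif on the other strand, read as GTAAACA, lay 223 bases and a CCAAT box on the other strand 58 bases before the start. BCL2L1 held TGACG 201 bases and TATAAA 208 and 125 bases before this start. The E-box was found 4 times in the BAX window, where the TGACG core overlaps one of them. These matches describe letters and are not evidence of binding.

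To find which members responded in motor neurons, treated and control GFP-positive libraries were compared over 15333 genes. At an adjusted p under 0.05, 4 of the 10 members were higher (BBC3, PMAIP1, BCL2L11 and MCL1) and 3 were lower (BID, BCL2L1 and BAX), against 26.5% of all genes tested higher and 24.4% lower. With a fold change of at least 2 as well, the limits the study used for its differentially expressed genes, 3 members were higher and 2 lower, against 12.8% and 11.2% of all genes. PMAIP1, among the higher, passed the filter on low counts through the treated libraries. Groups did not overlap for 3 members that were higher and 3 that were lower, against 26.9% and 30.6% of all genes. The median log2 fold change was 0.25 over the members and 0.03 over all genes. With 10 genes, counts of this size are not read as a property of the family.

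Fewer members passed in the GFP-negative cells, where 15513 genes were tested. BBC3 and PMAIP1 were higher and BID was lower, against 15.3% of all genes higher and 16.2% lower, and 2 of the 10 were higher by at least 2-fold, against 8.59%. None was lower by at least 2-fold with edgeR or with DESeq2, against 9.75% of all genes, and 2 were lower at an unadjusted p under 0.05 without a fold limit. Groups did not overlap for 3 members that were higher (BBC3, PMAIP1 and BAK1) and for 1 that was lower (BID), against 24% and 22.6% of all genes. The median log2 fold change was 0.02 over the members and -0.01 over all genes. Without control GFP-negative replicate 3, 2 members were higher, both by at least 2-fold, and 1 was lower, against 17.5%, 10.2% and 17.4% of 15859 genes. The groups then did not overlap for MCL1 either, which made 4 members higher and 1 lower, against 30.7% and 28.3% of all genes, and the median over the members was -0.08.

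Among the BH3-only genes, BBC3 rose in both sort fractions. BBC3 encodes PUMA, which binds all the guardians and is a known target of the ER stress factor CHOP. In control GFP-positive libraries its level was 31.7, 33.1 and 29.0 CPM, and in treated GFP-positive libraries 85.1, 77.4 and 68.9 CPM. Control GFP-negative libraries held 27.0, 21.4 and 18.3 CPM and treated ones 73.3, 68.2 and 83.6 CPM. In both fractions the lowest treated value exceeded the highest control value, and the treated libraries of the 2 fractions overlapped. The log2 fold change was 1.37 (SE 0.17, adjusted p = 3.28e-08) in GFP-positive and 1.73 (SE 0.19, adjusted p = 2.19e-04) in GFP-negative cells, that is 2.58-fold and 3.32-fold. Its MANE Select transcript has a GC content of 69.7%, the highest of the members, and with the trend with GC content removed from each library the log2 fold change in GFP-positive cells was 2.01 (adjusted p = 7.01e-09).

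PMAIP1 encodes NOXA, a BH3-only protein that binds mainly MCL-1. It was nearly absent from control motor neurons, with 9, 7 and 0 reads, or 0.336, 0.203 and 0 CPM, and the count of 0 allows up to 0.0960 CPM (3 counts, counting error only). Treated GFP-positive libraries held 122, 113 and 104 reads, or 3.66, 3.23 and 2.75 CPM. In GFP-negative cells the level was already 1.94, 2.58 and 4.15 CPM in controls and reached 11.4, 10.5 and 16.8 CPM after treatment. The groups did not overlap in either fraction, and control GFP-negative cells overlapped treated GFP-positive cells. The log2 fold change was 4.24 (SE 0.49, 95% interval 3.24 to 5.24, adjusted p = 6.58e-09) in GFP-positive cells, where it rests on 16 control reads. That is 18.9-fold, and single control libraries moved it to 30.9-fold without control GFP-positive replicate 1 (log2 fold change 4.95) and 12.5-fold without control GFP-positive replicate 3 (3.65). In GFP-negative cells it was 2.14 (SE 0.33, adjusted p = 0.00126). Under a filter of at least 10 counts in every library PMAIP1 could not be fitted in GFP-positive cells. The same held for the control sort comparison and for the difference between the fractions.

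BCL2L11 rose in motor neurons and did not pass the test in GFP-negative cells. It encodes BIM, which binds all the guardians, can activate BAX and is known for its part in the death of neurons deprived of trophic support. Control GFP-positive libraries held 8.72, 8.05 and 10.5 CPM and treated ones 22.1, 19.2 and 15.1 CPM. In GFP-negative cells the level was 13.3, 14.9 and 15.4 CPM in controls and 9.84, 13.9 and 7.96 CPM after treatment. The GFP-positive groups did not overlap, whereas treated GFP-negative replicate 2 lay within the range of its controls. The log2 fold change was 1.12 (SE 0.21, adjusted p = 2.59e-05) in GFP-positive cells. It ranged from 0.98 to 1.25 over the 6 fits without 1 library, so that 2-fold was not reached in every fit. In GFP-negative cells it was -0.48 (SE 0.24, 95% interval -1.02 to 0.06, adjusted p = 0.157). The exons of BCL2L11 share 727 bases with MIR4435-2HG on the opposite strand, and the strand setting of the read counting is not given in the sources used here, so reads from the 2 genes there cannot be told apart without strand.

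BID fell in both fractions. Its product BID is cut by caspase-8 and then carries a death receptor signal to mitochondria. The level was 16.7, 21.3 and 16.3 CPM in control and 5.25, 8.53 and 6.86 CPM in treated GFP-positive libraries. In GFP-negative cells it was 30.5, 28.2 and 27.8 CPM in controls and 14.2, 17.4 and 17.9 CPM after treatment. Treated libraries lay below all controls in each fraction. The log2 fold change was -1.33 (SE 0.21, adjusted p = 3.52e-06) in GFP-positive and -0.83 (SE 0.18, adjusted p = 0.00655) in GFP-negative cells.

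BIK, which encodes a BH3-only protein of the ER membrane, was low throughout. It ranged from 0.896 to 1.68 CPM in control and from 1.26 to 1.75 CPM in treated GFP-positive libraries, and from 2.55 to 4.04 CPM and 2.80 to 4.21 CPM in control and treated GFP-negative libraries. The groups overlapped in each fraction, and the log2 fold change was 0.22 (95% interval -0.52 to 0.95, adjusted p = 0.637) in GFP-positive and 0.03 (95% interval -0.67 to 0.72, adjusted p = 0.959) in GFP-negative cells. These intervals leave room for changes of up to nearly 2-fold.

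**Figure D1:**
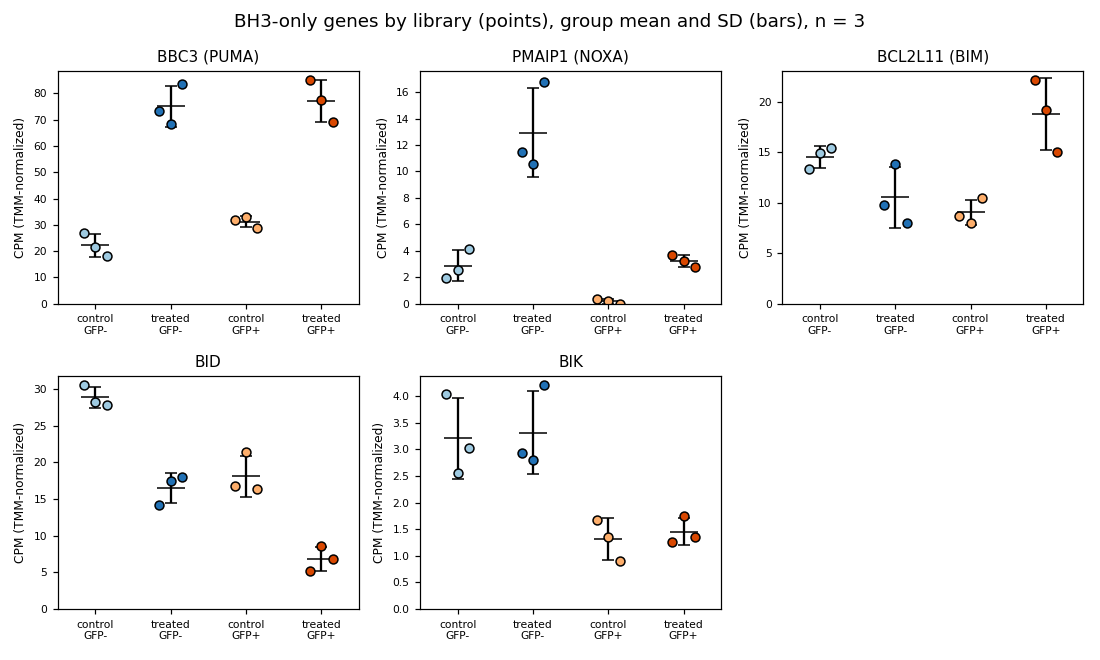
Levels of the 5 BH3-only genes in CPM (linear axes from 0) by group, with 1 point per library and bars for the group mean and SD (n = 3). BBC3 and PMAIP1 sit higher in treated than in control libraries of both sort fractions, BCL2L11 sits higher in treated GFP-positive libraries (15.1 to 22.1 CPM against 8.05 to 10.5 CPM), BID sits lower after treatment in both fractions, and BIK overlaps.

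The effectors showed small or no shifts with treatment. BAX stood at 49.1, 42.7 and 34.9 CPM in control and 29.4, 30.4 and 29.8 CPM in treated GFP-positive libraries. All 3 treated libraries lay below the controls, with a log2 fold change of -0.43 (SE 0.18, adjusted p = 0.0418). The call was lost with scaling by library size alone (-0.32, adjusted p = 0.141), with the GC trend removed (-0.05, adjusted p = 0.815), and without a filter on low counts (adjusted p = 0.0504). It was also lost in 4 of the 6 fits that left out a library, at -0.31 (adjusted p = 0.237) without control GFP-positive replicate 1 and at adjusted p of 0.0915, 0.101 and 0.0635 without control replicate 2, treated replicate 1 and treated replicate 2. In all, 7 of 14 alternatives lost it. In GFP-negative cells BAX held 137, 97.0 and 80.4 CPM in controls and 109, 101 and 113 CPM after treatment, with a log2 fold change of 0.02 (95% interval -0.43 to 0.47, adjusted p = 0.957). The control GFP-negative libraries span the treated ones.

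BAK1 encodes BAK, the effector that resides in the mitochondrial membrane. Its level was 15.4, 18.6 and 14.9 CPM in control and 16.7, 14.2 and 18.8 CPM in treated GFP-positive libraries, which overlap, and the log2 fold change was 0.09 (95% interval -0.30 to 0.49, adjusted p = 0.708). With the GC trend removed it was 0.43 (adjusted p = 0.0475). GFP-negative libraries held 36.2, 42.4 and 43.7 CPM in controls and 46.8, 45.3 and 65.0 CPM after treatment, so that the groups did not overlap, but the log2 fold change of 0.34 (SE 0.19, adjusted p = 0.193) did not pass.

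Among the guardians BCL2L1 fell in motor neurons. It encodes BCL-XL and, by splicing, the shorter BCL-XS, which promotes death, and counts per gene do not separate the 2 forms. Control GFP-positive libraries held 295, 372 and 297 CPM and treated ones 124, 153 and 125 CPM. In GFP-negative cells the level was 247, 245 and 212 CPM in controls and 200, 256 and 209 CPM after treatment. The GFP-positive groups lay far apart and the GFP-negative groups overlapped. The log2 fold change was -1.19 (SE 0.16, adjusted p = 1.49e-07) in GFP-positive cells, which left 0.437 times the control level, and -0.10 (95% interval -0.46 to 0.25, adjusted p = 0.657) in GFP-negative cells. ABALON overlaps 1735 exonic bases of BCL2L1 on the opposite strand. With the GC trend removed the log2 fold change in GFP-positive cells was -0.93 (adjusted p = 1.23e-05), short of 2-fold.

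MCL1 encodes MCL-1, a guardian with a short-lived protein. It held 213, 181 and 207 CPM in control and 232, 201 and 326 CPM in treated GFP-positive libraries, and the groups overlapped. Its log2 fold change of 0.41 (SE 0.17, adjusted p = 0.0444) passed, but without treated GFP-positive replicate 3, the library at 326 CPM, it was 0.18 (adjusted p = 0.425). The call was also lost under RLE scaling (adjusted p = 0.0632), with DESeq2 (adjusted p = 0.0771), in a fit of all 12 libraries (adjusted p = 0.141), with the GC trend removed (adjusted p = 0.175), and in 5 of the 6 fits that left out a library. In GFP-negative cells MCL1 held 211, 185 and 239 CPM in controls and 236, 234 and 296 CPM after treatment, with a log2 fold change of 0.25 (95% interval -0.12 to 0.62, adjusted p = 0.280).

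BCL2, the founding guardian, was low in every group. Its level was 5.41, 4.63 and 6.94 CPM in control and 7.80, 6.93 and 4.87 CPM in treated GFP-positive libraries, with a log2 fold change of 0.27 (95% interval -0.22 to 0.77, adjusted p = 0.361). GFP-negative libraries held 5.78, 6.40 and 10.1 CPM in controls and 4.32, 5.96 and 3.33 CPM after treatment. The log2 fold change there was -0.73 (SE 0.32, adjusted p = 0.112), and -0.45 (adjusted p = 0.269) without control GFP-negative replicate 3, which has the value of 10.1 CPM. Without that library the members called in GFP-negative cells were the same, with a log2 fold change of 1.61 for BBC3 (adjusted p = 1.81e-04), 2.49 for PMAIP1 (adjusted p = 1.57e-04), -0.85 for BID (adjusted p = 0.00734) and -0.44 for BCL2L11 (adjusted p = 0.212). The others then had 0.39 for BAK1, 0.35 for MCL1, -0.01 for BIK, -0.14 for BAX and -0.17 for BCL2L1, with adjusted p from 0.154 to 0.983.

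**Figure D2:**
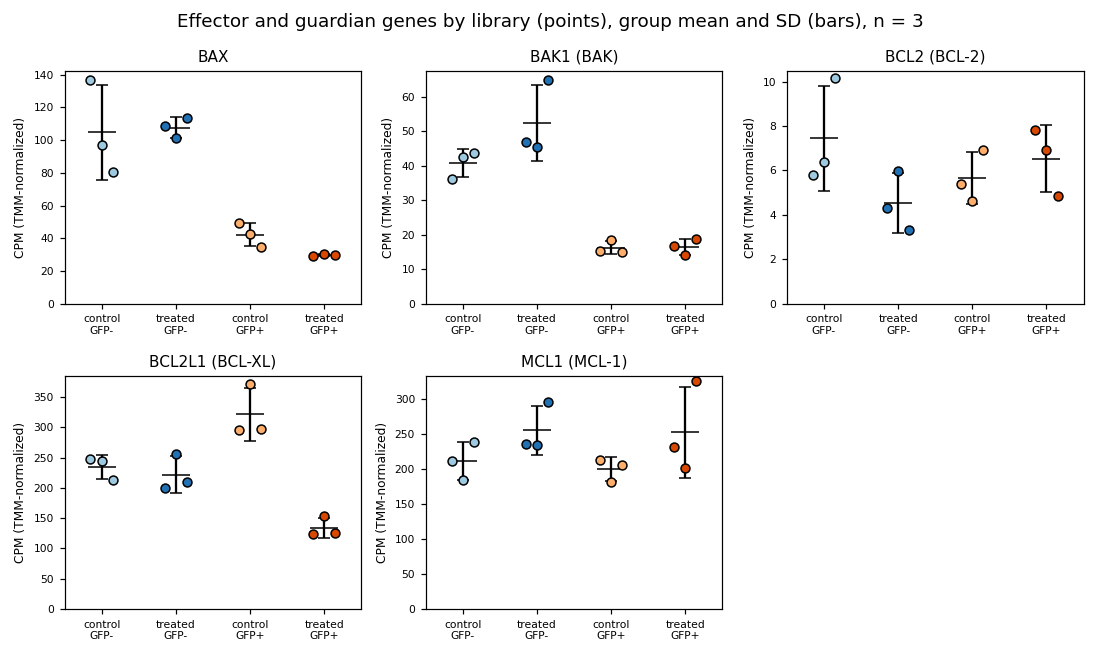
Levels of the effectors BAX and BAK1 and the guardians BCL2, BCL2L1 and MCL1 in CPM (linear axes from 0) by group, with 1 point per library and bars for the group mean and SD (n = 3). BCL2L1 in treated GFP-positive libraries (124 to 153 CPM) lies below all other groups, and BAX and BAK1 separate by sort fraction more than by treatment.

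**Figure D3:**
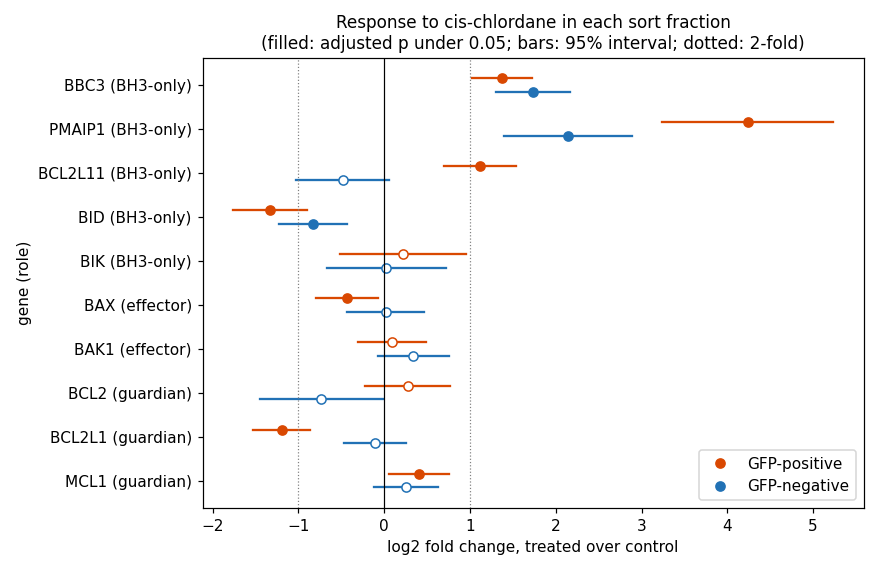
Log2 fold change of treated over control for each member in GFP-positive and GFP-negative cells, with 95% intervals (lines), adjusted p under 0.05 (filled points) and the 2-fold limits (dotted lines). BBC3, PMAIP1 and BID are filled in both fractions and lie on the same side of 0 there, and BCL2L11 and BCL2L1 are filled in GFP-positive cells, with values of 1.12 and -1.19.

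Whether the response differed between the fractions was tested as the interaction of treatment and sort fraction over all 12 libraries and 16226 genes. BCL2L11 rose more in GFP-positive cells, with a difference in log2 fold change of 1.51 (SE 0.31, adjusted p = 0.0187), and BCL2L1 fell more, with a difference of -1.18 (SE 0.22, adjusted p = 0.0104). These were 1 member higher and 1 lower of 10, against 0.968% and 1.22% of all genes tested. With the culture from which both fractions were sorted as a block the adjusted p was 0.00172 for BCL2L11 and 0.00112 for BCL2L1. Without control GFP-negative replicate 3 the differences were 1.47 (adjusted p = 0.0221) and -1.11 (adjusted p = 0.0147), and no other member passed.

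The other 8 members did not pass. PMAIP1 had a difference of 2.01 (SE 0.69, 95% interval 0.54 to 3.47, adjusted p = 0.152), and DESeq2 called it (2.11, adjusted p = 0.0120). BCL2 had 0.92 (SE 0.41, adjusted p = 0.272), BID -0.59 (SE 0.27, adjusted p = 0.289), BAX -0.54 (SE 0.26, adjusted p = 0.316) and BBC3 -0.45 (SE 0.24, adjusted p = 0.359). For BIK, BAK1 and MCL1 the values were 0.10, -0.33 and 0.07, with adjusted p of 0.943, 0.562 and 0.930. Without control GFP-negative replicate 3, PMAIP1 had 1.67 (adjusted p = 0.196) and BCL2 0.63 (adjusted p = 0.459), and the value of MCL1 was -0.03. With the culture as a block in edgeR none of the 8 passed either. The adjusted p was then 0.0592 for BAX, 0.0645 for BCL2 and 0.0897 for PMAIP1, and from 0.102 to 0.913 for the rest.

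The calls for BCL2L11 and BCL2L1 lie near the threshold when a library is left out. BCL2L11 had an adjusted p of 0.0505 without control GFP-negative replicate 2, 0.0557 and 0.0736 without control GFP-positive replicates 1 and 2, 0.0636 without treated GFP-negative replicate 1 and 0.0513 without treated GFP-positive replicate 1. Its difference ranged from 1.37 to 1.81 over the 12 such fits. BCL2L1 had an adjusted p of 0.0803 without treated GFP-positive replicate 1 and 0.0683 without treated GFP-positive replicate 3, and its difference ranged from -1.28 to -0.97.

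Between the sort fractions of the solvent controls, several members differed in level. In controls, 15404 genes were tested, and 6 of the 10 members were lower in GFP-positive than in GFP-negative cells (PMAIP1, BCL2L11, BID, BIK, BAX and BAK1), against 23.1% of all genes. None was higher with edgeR or DESeq2, against 17.1% of all genes and 7.47% by at least 2-fold, and 1 was higher at an unadjusted p under 0.05. PMAIP1, BIK, BAX and BAK1 were lower by at least 2-fold, 4 of 10 against 15.3% of all genes. Of these, PMAIP1 passed the filter on low counts through the GFP-negative libraries. Groups did not overlap for these 6 members and, in the other direction, for BBC3 and BCL2L1, against 24.1% of all genes lower and 29.1% higher. The median log2 difference was -0.78 over the members and -0.02 over all genes.

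The log2 difference of control GFP-positive from GFP-negative cells was -4.12 (SE 0.72, adjusted p = 0.00130) for PMAIP1, -1.43 (SE 0.18, adjusted p = 1.49e-04) for BAK1 and -1.41 (SE 0.21, adjusted p = 4.90e-04) for BAX. It was -1.40 (SE 0.35, adjusted p = 0.00932) for BIK, -0.79 (SE 0.20, adjusted p = 0.0101) for BCL2L11 and -0.78 (SE 0.18, adjusted p = 0.00583) for BID. Progenitor and cycling markers were higher in GFP-negative cells, with the sums given above, and their part in these differences was not tested. The guardians MCL1 and BCL2 had values of -0.19 (adjusted p = 0.358) and -0.50 (adjusted p = 0.193). BBC3 and BCL2L1 had 0.39 (adjusted p = 0.115) and 0.35 (adjusted p = 0.0810), and with the culture as a block both passed at 0.40 (adjusted p = 0.0406) and 0.34 (adjusted p = 0.0330). BCL2L11 missed the threshold without control GFP-positive replicate 2 (-0.68, adjusted p = 0.0501) and without control GFP-negative replicate 2 (-0.75, adjusted p = 0.0503). Without control GFP-negative replicate 1 BBC3 passed (0.54, adjusted p = 0.0258). Without control GFP-negative replicate 3 the same count of 6 members was lower, among them BAX at -1.56 (adjusted p = 1.82e-06), PMAIP1 at -3.75 (adjusted p = 4.33e-05) and BCL2L11 at -0.72 (adjusted p = 0.0124). BAK1 then had -1.35 (adjusted p = 1.47e-05), BIK -1.41 (adjusted p = 0.00356) and BID -0.78 (adjusted p = 0.00411), against 25% of 15674 genes lower. By at least 2-fold 4 were lower, against 15.9%, and 0 were higher without a fold limit, against 22.1%. Groups did not overlap for 6 members lower and 2 higher, against 29.8% and 36.2%, and the median over the members was -0.75. BBC3 had 0.29, BCL2L1 0.30, BCL2 -0.19 and MCL1 -0.07 in that fit, with adjusted p from 0.185 to 0.781. The value of PMAIP1 was -4.84 without control GFP-positive replicate 1 and -3.53 without control GFP-positive replicate 3.

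In treated cells, 6 of the 10 members were again lower in GFP-positive cells (PMAIP1, BID, BIK, BAX, BAK1 and BCL2L1), against 24.9% of the 15416 genes tested. Only BCL2L11 was higher, against 24.9% of all genes. By at least 2-fold, 5 members were lower and 0 higher, against 13.7% and 10% of all genes. None was higher by 2-fold with DESeq2 either, and 1 was higher at an unadjusted p under 0.05 without a fold limit. Groups did not overlap for 6 members lower and 1 higher, against 29.6% and 28.2%. The median log2 difference was -0.93 over the members and 0.05 over all genes.

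BAX had a log2 difference of -1.83 (SE 0.14, adjusted p = 7.99e-07), BAK1 of -1.63 (SE 0.19, adjusted p = 2.09e-05) and PMAIP1 of -1.98 (SE 0.24, adjusted p = 2.81e-05). BID had -1.24 (SE 0.22, adjusted p = 5.18e-04), BIK -1.16 (SE 0.29, adjusted p = 0.00542) and BCL2L1 -0.71 (SE 0.16, adjusted p = 0.00263). BCL2L11 was higher by 0.85 (SE 0.24, adjusted p = 0.00982), and without treated GFP-positive replicate 1 the value was 0.70 (adjusted p = 0.0574). In controls the same gene was lower in GFP-positive cells. BBC3 at 0.06 (95% interval -0.26 to 0.38) and MCL1 at 0.01 (95% interval -0.38 to 0.40) did not pass. With the GC trend removed BBC3 passed as higher in GFP-positive cells. BCL2 had 0.54 (adjusted p = 0.120), and passed with the culture as a block (0.56, adjusted p = 0.0205) and without treated GFP-negative replicate 2 (0.81, adjusted p = 0.0320).

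Levels of different genes were compared per length of the MANE Select transcript, as CPM per kb. In control GFP-positive cells BCL2L1 was the highest member at 125 ± 17.0 CPM per kb (SD, n = 3), followed by BAX at 53.1 ± 8.94, MCL1 at 50.7 ± 4.19 and BBC3 at 16.9 ± 1.14 CPM per kb. BAX and MCL1 overlapped over libraries, and the other steps among these 4 did not. BID at 8.33, BAK1 at 7.50, BCL2L11 at 1.78, BIK at 1.38, BCL2 at 0.823 and PMAIP1 at 0.0945 CPM per kb completed the order, in which BID overlapped BAK1, BCL2L11 overlapped BIK, and BIK overlapped BCL2.

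After treatment the order in GFP-positive cells began with MCL1 at 64.1 ± 16.5 CPM per kb and BCL2L1 at 52.1 ± 6.37, which overlapped, then BBC3 at 41.8 ± 4.37 and BAX at 37.6 ± 0.669, which overlapped as well. BAK1 at 7.65, BCL2L11 at 3.69, BID at 3.16, PMAIP1 at 1.69, BIK at 1.53 and BCL2 at 0.950 CPM per kb followed. Here BCL2L11 overlapped BID and PMAIP1 overlapped BIK.

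GFP-negative cells had another order, led by BAX. It stood at 132 ± 36.6 CPM per kb in controls and 135 ± 7.75 after treatment, above BCL2L1 at 91.2 ± 7.67 and 86.1 ± 11.8 and MCL1 at 53.6 ± 6.92 and 64.7 ± 8.92. None of these neighbours overlapped in either group. BBC3 was the sixth member in controls at 12.0 CPM per kb, overlapping BID at 13.3, and the fourth after treatment at 40.6 CPM per kb. BCL2 was lowest in both groups, at 1.08 and 0.659 CPM per kb. In controls it overlapped PMAIP1 at 1.52 CPM per kb. With control GFP-negative replicate 3 left out the control order began with BAX at 147, BCL2L1 at 95.7 and MCL1 at 50.1 CPM per kb, again with no overlap, BBC3 was the sixth at 13.1 and BCL2 the last at 0.885. These lengths come from GENCODE release 44 and not from the authors' annotation, and a gene that uses another isoform would have another length.

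**Figure D4:**
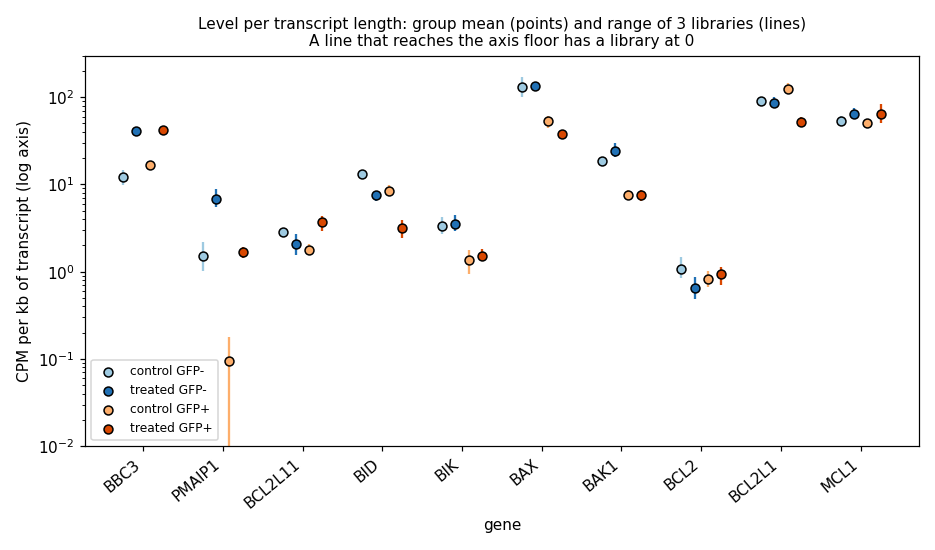
CPM per kb of MANE Select transcript (log axis) for the 10 members in the 4 groups, as the group mean (points) and the range of the 3 libraries (lines). BCL2L1 leads in control GFP-positive cells at 125 CPM per kb and BAX in both GFP-negative groups, and PMAIP1 in control GFP-positive cells reaches the floor of the axis because 1 library has no read.

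Of 13 further genes of the BCL2 family, 10 were tested in GFP-positive cells, and 5 were higher and 2 lower, against 26.5% and 24.4% of all genes. They were HRK, BCL2L15, BNIP3L, BNIP3 and BCL2L2, and BAD and BOK. The median log2 fold change of the 10 was 0.49. HRK, a BH3-only gene known from dying neurons, stood at 28.8 ± 2.67 CPM in control and 124 ± 13.4 CPM in treated GFP-positive cells (log2 fold change 2.17, SE 0.17, adjusted p = 1.13e-12). In GFP-negative cells it went from 14.0 ± 3.52 to 45.0 ± 2.69 CPM (1.67, SE 0.22, adjusted p = 5.32e-04). The mitophagy receptor BNIP3 rose from 40.7 ± 2.38 to 65.8 ± 10.0 CPM in GFP-positive and from 22.8 ± 2.13 to 65.5 ± 11.7 CPM in GFP-negative cells, and its relative BNIP3L, also a mitophagy receptor, rose by 0.96 and 1.06 on the log2 scale. BOK, a BAX-like gene, fell from 67.6 ± 11.7 to 35.8 ± 4.39 CPM in GFP-positive cells (-0.85, adjusted p = 1.34e-04). The call of BCL2L15 was lost in 3 of 6 fits without 1 library, and its value of 1.03 became 1.64 without control GFP-positive replicate 1. In GFP-negative cells, 5 of 10 were higher (HRK, BNIP3, BNIP3L, BCL2L13 and BCL2L2), against 15.3% of all genes, and the call of BCL2L2 was lost in 3 of 6 such fits. None of the 10 was lower with edgeR there, while 1 was lower at an unadjusted p under 0.05 and 1 with DESeq2. The same 5 were higher without control GFP-negative replicate 3, with 1.48 for HRK, 1.45 for BNIP3 and 1.25 for BNIP3L, and BCL2L12 was lower.

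Downstream of the pore, 16 of 17 listed genes of the apoptosome, caspases and their inhibitors were tested, and in GFP-positive cells 4 were higher and 5 lower, shares near the 26.5% and 24.4% of all genes, with a median of -0.04. CYCS, which encodes cytochrome c, went from 86.9 ± 7.27 to 233 ± 39.6 CPM (log2 fold change 1.49, SE 0.17, adjusted p = 2.70e-09). The inhibitor BIRC7 had a log2 fold change of 4.07 (adjusted p = 1.43e-08), from a level of only 0.117 CPM. It had 3, 6 and 2 reads in control GFP-positive and 7, 9 and 6 in control GFP-negative libraries, and passed the filter through the treated ones. XIAP and BIRC2, inhibitors too, were also higher. CASP2, DFFB, CASP6, ENDOG and BIRC5 were lower. ENDOG, which encodes a mitochondrial nuclease, fell from 46.5 ± 10.3 to 20.9 ± 4.88 CPM (-1.09, SE 0.20, adjusted p = 1.91e-05). In GFP-negative cells BIRC7, CYCS, BIRC2 and XIAP were higher, and CASP2, CASP6 and BIRC5 were lower, 4 and 3 of 16 against 15.3% and 16.2% of all genes. BIRC5, which serves in cell division as well, had -1.40 and -1.58 in the GFP-positive and GFP-negative cells, and CASP6 -0.86 and -1.25. The call of DFFB was lost in 4 of 6 fits without 1 library and that of BIRC2 in 1 in GFP-positive cells, and those of BIRC2 and XIAP in 2 of 6 each in GFP-negative cells. With control GFP-negative replicate 3 left out the same genes were called in GFP-negative cells and ENDOG as well, with 3.61 for BIRC7, 1.16 for CYCS, -1.67 for BIRC5 and -1.33 for CASP6.

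Of 18 partners of the family or proteins of its turnover, 17 were tested, with 5 higher and 2 lower in GFP-positive cells, against 26.5% and 24.4% of all genes, and a median of 0.18. ITPR1 and ITPR2, calcium channels of the ER, had log2 fold changes of 1.54 (adjusted p = 0.00160) and 1.16 (adjusted p = 0.0321), at levels of 1.67 and 1.04 CPM in treated cells. TPT1, which encodes an MCL-1 binding protein, had 1.17 (adjusted p = 3.89e-07), MARCHF5, a mitochondrial ubiquitin ligase, 0.64 (adjusted p = 0.00212), and TMBIM6, known as BAX inhibitor 1, 0.64 (adjusted p = 9.98e-04). DYNLL1 and DYNLL2, dynein light chains that hold BIM and BMF, were lower, DYNLL2 by -0.59 (adjusted p = 0.00160). The call of ITPR2 was lost in 5 of 6 fits without 1 library. In GFP-negative cells TPT1, TMBIM6, VDAC2 and MARCHF5 were higher and DYNLL2 was lower, 4 and 1 of 17 against 15.3% and 16.2% of all genes. There the call of MARCHF5 was lost in 5 of 6 such fits, that of DYNLL2 in 4 and that of TPT1 in 2. With control GFP-negative replicate 3 left out these 5 genes passed, and ITPR2, ITPR3 and DYNLL1 as well.

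All 10 listed transcription factors known to act on BH3-only genes were tested, and 8 were higher and 1 lower in GFP-positive cells, against 26.5% and 24.4% of all genes, with a median of 1.13. Like the other lists, this one was chosen with earlier results of these data known, so its share describes the listed genes and is not a test. ATF3, a stress-induced factor, went from 16.8 ± 1.93 to 375 ± 49.6 CPM (4.54, SE 0.19, adjusted p = 4.54e-20). DDIT3, which encodes CHOP, went from 17.1 ± 3.40 to 200 ± 57.7 CPM (3.62, SE 0.21, adjusted p = 1.73e-16), and CEBPB from 8.09 ± 0.623 to 87.0 ± 17.4 CPM (3.49, SE 0.20, adjusted p = 1.73e-16). ATF4, the factor of the integrated stress response, had 1.87 (SE 0.17, adjusted p = 1.44e-11). In GFP-negative cells 7 were higher and 2 lower, against 15.3% and 16.2% of all genes, and the values of ATF3, DDIT3, CEBPB and ATF4 were 3.64, 3.05, 3.11 and 1.96. E2F1 was lower in both fractions and FOXO1 was higher in GFP-positive and lower in GFP-negative cells, calls that were lost in 5 and 3 of 6 fits without 1 library. In GFP-negative cells the call of JUN was lost in 5 and that of FOXO3 in 4 of 6. The counts were 6 higher and 3 lower without control GFP-negative replicate 3, with JUN no longer called and TP73 called, and ATF3, DDIT3, CEBPB and ATF4 had 3.52, 2.93, 3.30 and 1.74. The levels of these factors do not show which of them act on the members.

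None of the genes in these 4 lists passed the test of a different response between the fractions with edgeR, with or without control GFP-negative replicate 3. These fits had no block for the culture, and blocked values of these lists were not examined. Over all genes the block raised the calls from 355 to 1264. At an unadjusted p under 0.05, 0 higher and 5 lower of the other family genes, 1 and 1 of the apoptosome genes, 1 and 2 of the partners and 2 and 0 of the factors were found. DESeq2 called 0 higher and 1 lower, 1 and 0, 0 and 0, and 1 and 0 of them.

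**Figure D5:**
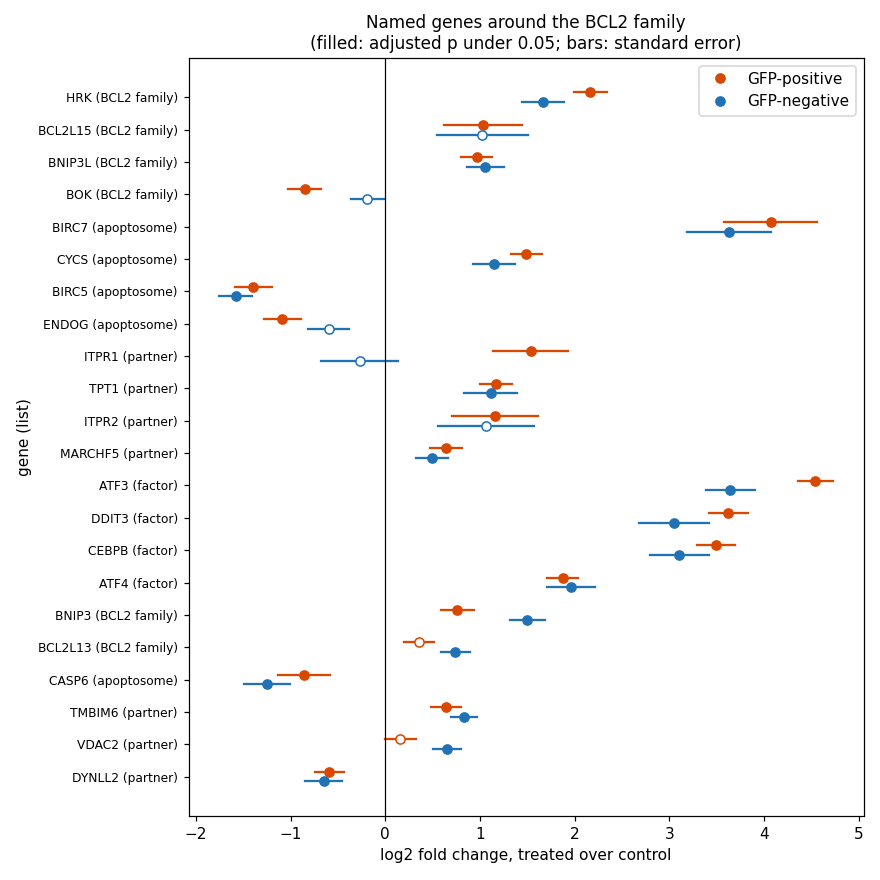
Log2 fold change of treated over control in GFP-positive and GFP-negative cells for the genes of the 4 further lists chosen by size of change, with standard errors (lines) and adjusted p under 0.05 (filled points). ATF3, DDIT3, CEBPB and BIRC7 have values over 3 in both fractions, whereas BIRC5 and CASP6 lie below 0 in both.

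Across the 12 libraries and 13812 genes with a mean of at least 1 CPM, the genes closest to each member past 2-fold in motor neurons were found by Pearson r of log2 CPM. For BBC3 they were P4HA2 (r = 0.994), ADRA1B (0.993) and PPP1R15A (0.991), and 486 genes exceeded 0.9. PMAIP1 was closest to CLDN23 (0.971), SLC2A10 (0.968) and C5orf34 (0.964), and BID to ERAL1 (0.986), TPI1 (0.985) and ANAPC15 (0.982). BCL2L1 was closest to GPC1 (0.977), GGN (0.970) and RPRM (0.961). Genes over 0.9 numbered 140 for PMAIP1, 432 for BID and 73 for BCL2L1. For BCL2L11 the closest were RYR3 (0.867), SBF2-AS1 (0.863) and ZNF121 (0.853), and 0 genes exceeded 0.9. The libraries fall into 4 groups and share their cultures in pairs, so these values describe the group pattern and carry no test. Among the members themselves BAX, BIK and BAK1 had the closest patterns, with r of 0.912 for BAX and BIK, 0.909 for BAX and BAK1 and 0.887 for BIK and BAK1. BCL2L1 had r of -0.705 with BCL2L11 and 0.773 with BID. Over the 11 libraries without control GFP-negative replicate 3 these 5 values were 0.913, 0.912, 0.880, -0.715 and 0.824. The 3 genes closest to BBC3 remained the same. PMAIP1 kept C5orf34, while B3GNT9 (0.988) and NPAS2 (0.976) replaced CLDN23 and SLC2A10. RALY (0.988) replaced TPI1 for BID, and ARF3 (0.967) replaced RPRM for BCL2L1. For BCL2L11 none of the 3 remained, and AARS2 (0.957), ENDOD1 (0.884) and MCAM (0.882) took their place.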

How the data were processed

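Bulk RNA-seq of 12 libraries was analysed. Per the labels and the study's methods, stranded mRNA libraries gave single-end reads, the authors joined lanes, checked reads with FASTQC, and mapped them to hg38 with HISAT2 (Ensembl GRCh38.103). The submitters' processing notes name featureCounts, whose version and strand setting are not given in the sources used here. The deposited values are raw counts per gene, used as deposited. Genes whose reads overlap on the other strand may therefore share counts.

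The effect of treatment was tested inside each sort fraction, the effect of the sort inside each treatment, and their interaction over all groups, with edgeR 4.0.16 (R 4.3.3). After TMM scaling and filterByExpr (minimum count 10, minimum total 15), the quasi-likelihood F-test was adjusted by Benjamini-Hochberg over all genes tested. Levels are CPM scaled by TMM over 12 libraries. No exact permutation test was run, since the smallest p for 3 against 3 libraries is 0.1. The SE was derived from the log2 fold change and the F statistic of its test, and the 95% intervals from a t distribution on that SE. Intervals and floors cover what the model or counting error gives. Depth per library stands in the results.

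Replicate numbers were taken to mark the culture from which both fractions were sorted, which the labels do not state. Deviations from group means over 16226 genes had correlations of 0.281, 0.0849 and 0.214 for the control pairs. For the treated pairs they were 0.160, 0.204 and 0.356. Each GFP-positive library was closest to the GFP-negative library of its own number, though 1 control pair lay below 0.1. The match was not sought from the GFP-negative side. Of 6 pairs of a treated and a control library with the same number, the treated library was closest to its own number in 3. In the main fits neither these pairs nor the sort fractions of a culture were treated as paired, and a block was fitted only as an alternative. Whether a treated and a control library of the same number share a thaw is not given in the sources used here. Blocked values are given where a call of a member changes and for the difference between the fractions.

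Alternatives were each library left out in turn, a block for the replicate number, all 12 libraries in 1 fit, a stricter filter (10 counts in each library), no filter, scaling by RLE or by library size, and DESeq2 1.42.0. Removal of GC trends (loess, span 0.5), and the fits of the other lists, orders and correlations without single libraries, were chosen after seeing the data. The members, gene lists and tests were chosen with earlier results of these data known. Genes of the other lists were named by up to 4 of the largest changes past the threshold in each treatment comparison, and the few others named in counts were named after their values were seen. Some genes of these lists are not reported here and do not enter their counts or medians. For members past 2-fold in GFP-positive cells the 3 genes with the highest r were named. Positions, GC content and lengths came from GENCODE release 44, which matched 25763 of 28278 symbols, and promoters from RefSeq. The tests were checked on simulated counts. Figures were drawn with matplotlib 3.10.9. Of the per-sample columns, 0 were left unused.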

Additional observations from a re-analysis of the deposited data

Results flagged for a closer look

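Of the members, 2 had a response to cis-chlordane that differed between GFP-positive and GFP-negative cells by a test of the difference itself. For BCL2L11 the log2 fold change was higher in GFP-positive cells by 1.51 (SE 0.31, adjusted p = 0.0187, interaction in edgeR over 16226 genes). Its log2 fold change was 1.12 in GFP-positive and -0.48 in GFP-negative cells, all 3 treated GFP-positive libraries lay above their controls, and 2 of the 3 treated GFP-negative libraries lay below theirs. For BCL2L1 the difference was -1.18 (SE 0.22, adjusted p = 0.0104), from -1.19 in GFP-positive and -0.10 in GFP-negative cells, and all 3 treated GFP-positive libraries lay below their controls while the GFP-negative groups overlapped. Both calls lie near the threshold. Of 12 fits without 1 library, 7 kept the call of BCL2L11 and 10 that of BCL2L1. The exons of both genes also overlap a gene on the opposite strand, and the strand setting of the read counting is not given in the sources used here.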

How the results depend on the processing

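Of 747 values of members under alternatives, 684 kept their direction and their side of the threshold, 26 fell short of it, 13 newly passed it and 24 changed sign, none of the last with an adjusted p under 0.05. In the GFP-positive response, members lower by at least 2-fold went from 2 to 1 with the GC trend removed. Members higher by at least 2-fold ranged from 2 to 3 there over fits without 1 library. In control cells, members higher in GFP-positive cells went from 0 to 1 by library size alone, to 2 with the replicate block, 2 with all 12 libraries and 2 with the GC trend removed, and ranged from 0 to 1 over fits without 1 library. In treated cells that count went from 1 to 2 with the block and 2 with the GC trend removed, and ranged from 0 to 2 without 1 library; at least 2-fold it was 1 by library size alone and ranged from 0 to 1. For the difference between fractions, members higher were 2 with DESeq2 and ranged from 0 to 1 without 1 library, members lower ranged from 0 to 1, and genes called in all went from 355 to 789 with DESeq2, to 1264 with the culture block, and ranged from 141 (without control GFP-positive replicate 2) to 414. The causes were not tested.

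Signs that changed were near 0. In GFP-negative cells they were BIK at -0.037 and BAX at -0.030 by library size alone and BCL2L1 at 0.052 with the GC trend removed, and fits without 1 library ranged from -0.19 to 0.23 for BIK and from -0.14 to 0.26 for BAX. In GFP-positive cells such fits ranged from -0.0088 to 0.19 for BAK1 and from -0.0030 to 0.43 for BIK. Between fractions after treatment MCL1 was -0.016 with RLE and DESeq2, -0.015 with all 12 libraries, -0.014 with the replicate block, -0.10 with the GC trend removed, and from -0.24 to 0.12 without 1 library, where BBC3 ranged from -0.037 to 0.13. For the difference between fractions, BIK ranged from -0.11 to 0.35 and MCL1 from -0.031 to 0.28.

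The replicate block between treated and control libraries, whose numbers are not known to mark a shared thaw (correlations of -0.02, 0.10 and 0.13 in GFP-positive and -0.05, 0.28 and 0.03 in GFP-negative cells), changed no call of a member, and genes called at least 2-fold went from 3675 to 3652 and from 2844 to 2694. The culture block changed no call of a member other than those given. Library size alone moved the median of all genes from 0.03 to 0.14 in the GFP-positive response, from 0.05 to 0.22 between treated fractions and from -0.05 to 0.20 for the difference. Depth limits PMAIP1 most, with 0 to 9 reads in control GFP-positive libraries.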
